A study of Mus musculus with 8 samples.

Results

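Interferon-stimulated genes are genes whose transcription rises when cells sense interferon. A set of 40 of them, taken by name, was followed through the liver arrays, out of 22227 genes tested. A gene belonged to the set if a gene probe carried its symbol, or an accession that now carries it, and the brightest of its probes stood for it. All 40 had a probe, and all 40 passed the filter on dim probes.

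The study asked what the homeobox factor Cux2, which is higher in female than in male mouse liver, does to liver gene expression when it is delivered by a virus. RNA came from livers of ICR scid mice at 8 weeks of age, which as scid mice lack mature B and T cells. The groups were females and males given Adeno-Cux2, an adenovirus for Cux2, and killed 5 days later, males given Adeno-Cux2 and killed 3 days later, the matching mice given the control adenovirus Adeno-CMV, and untreated males and females. The promoter that drives Cux2 in the virus is not given in the sources used here. Each of 8 arrays with 2 colours paired 2 pools of 3 to 7 mice, with 2 arrays of separate pools and reversed dyes per comparison, so p-values measure the spread between pools and not between mice. Adeno-Cux2 and Adeno-CMV pools held 8 and 7 females at day 5, 12 and 13 day 5 males, and 11 and 11 day 3 males, and the untreated pools held 10 males and 10 females by the sample labels. All treated groups carried a virus, and only the untreated mice carried none.

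Before the results, 2 checks bear on the labels. Cux2 itself was higher in the pools labelled Adeno-Cux2 in day 5 males (0.60 ± 0.09, log2) and at day 3 (0.49 ± 0.09) and lower in those of females at day 5 (−0.61 ± 0.09), and was lower in untreated males than in females (−1.88 ± 0.09). Against untreated males, the day 5 males stood at −0.43 ± 0.17 for Adeno-Cux2 (not called) and at −1.03 ± 0.17 for Adeno-CMV (called lower), so the probe showed no rise over untreated males. The female arrays thus went against their label in this gene, and their directions below follow the label. Over all genes the female ratios so directed had a Pearson r of 0.72 with those of day 5 males, which come from other pools. Whether the probe reads the Cux2 of the virus is not given in the sources used here. Of 11 hepatocyte markers 10 were measured, and all 10 were well above background in every pool.

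Interferons bind receptors at the cell surface, whose kinases activate transcription factors. Type I and type III interferons act mainly through a complex that holds STAT2 and IRF9 and binds the interferon-stimulated response element, and interferon gamma acts mainly at gamma-activated sites. The products block viral translation and replication, sense viral nucleic acid, and feed back on the pathway, and in liver both hepatocytes and resident macrophages can make them.

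Promoter sequences are shown first because the 40 genes were gathered by what regulates them, and no probe sequence is printed. RefSeq promoter windows on GRCm38.p6, from 250 bases before to 50 bases after each start, were found for 29 of the 40 genes (36 windows). The letters GAAANNGAAA, a core of the interferon-stimulated response element, were sought on both strands and stood in a window of 17 of the 29 (58.6%), against 3.99% of all 27025 genes in the table and 3.44% of all 32851 windows. The letters TTCNNNGAA, a gamma-activated site, read the same on both strands and stood in 8 of the 29 (27.6%), against 9.55% of all genes and 8.3% of all windows. Matches of GAAANNGAAA overlapped one another in 6 of the 36 windows, and a match of one motif overlapped one of the other in 1 window. In 8 genes a window held at least 2 matches of GAAANNGAAA. A match is a run of letters and was not tested as a binding site. The 8 stretches below, each of 80 bases upstream of a start, were chosen with their values known to show matches in genes of several roles, and capitals mark GAAANNGAAA or its reverse complement.
Isg15, chr4:156200849-156200928, minus strand: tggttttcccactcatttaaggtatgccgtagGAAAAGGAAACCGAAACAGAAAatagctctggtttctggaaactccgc
Ifit1, chr19:34640759-34640838, plus strand: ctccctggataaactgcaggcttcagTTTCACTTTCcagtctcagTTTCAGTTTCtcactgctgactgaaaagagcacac
Ifit3, chr19:34583349-34583428, plus strand: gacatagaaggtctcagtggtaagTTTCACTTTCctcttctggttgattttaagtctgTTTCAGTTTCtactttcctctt
Rsad2, chr12:26456523-26456602, minus strand: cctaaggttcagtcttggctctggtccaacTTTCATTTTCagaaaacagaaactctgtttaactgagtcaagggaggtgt
Oas1a, chr5:120907526-120907605, minus strand: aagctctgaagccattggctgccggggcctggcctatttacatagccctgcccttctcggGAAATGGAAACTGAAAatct
Bst2, chr8:71537553-71537632, minus strand: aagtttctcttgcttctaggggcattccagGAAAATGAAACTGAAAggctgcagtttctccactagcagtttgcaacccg
Gbp2, chr3:142620563-142620642, plus strand: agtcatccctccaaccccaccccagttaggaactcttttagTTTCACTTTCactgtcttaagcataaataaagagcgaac
Gbp3, chr3:142559964-142560043, plus strand: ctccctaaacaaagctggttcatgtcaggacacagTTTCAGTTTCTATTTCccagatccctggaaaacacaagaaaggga

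Response medians of genes with and without the match lay close together at day 5. Genes with GAAANNGAAA had a median log2 ratio of 0.50 in females at day 5, 0.69 in day 5 males and 0.72 in day 3 males (17 genes), and those without it had 0.56, 0.66 and 0.97 (12 genes). Stat2 has a match and was called in none of the 4 array comparisons, while Ifi44 and Oasl2 have none in their windows and had large ratios.

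Most of the 40 genes were higher in the Adeno-Cux2 pools than in the Adeno-CMV pools in all 3 settings. Ratios are log2 of Adeno-Cux2 over Adeno-CMV, each with the standard error of one limma model over the 8 arrays. A gene was called at a Benjamini-Hochberg adjusted p under 0.05 over all genes. In females at day 5, 28 were called higher, against 12.8% of all genes, and 0 lower, against 6.3% (19.1% either way). In males at day 5, 34 were called higher, against 13.9% of all genes, and 0 lower, against 4.95% (18.8% either way). In males at day 3, 36 were called higher, against 23.7% of all genes, and 1 lower, Iigp1, against 20.3% (44% either way). At an unadjusted p under 0.05 in limma, 33, 37 and 37 members were higher in these 3 comparisons and 0, 0 and 1 lower. Median ratios over the 40 were 0.52, 0.69 and 0.95 for the same comparisons, while the medians of all genes lay between −0.0024 and 0.0093. By at least 2-fold, 6, 14 and 18 members were called higher.

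The direction was the same on nearly every array. On all 6 Adeno-Cux2 arrays 36 of the 40 had a positive ratio, and Gbp2, Gbp3, Stat2 and Iigp1 were the exceptions. On the 4 male arrays alone it was 39, and on both female arrays, as labelled, 36; with the female sign turned, 0 would be positive on all 6. In all 3 comparisons 26 were called higher, 38 in at least 1, and Stat2 was called in none. The number of calls depended on single arrays: in day 5 males it was 15 without replicate 1 and 13 without replicate 2, and in females 16 without replicate 2. At day 3 it was between 29 and 38 when any of the 8 arrays was left out.

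**Figure D1:**
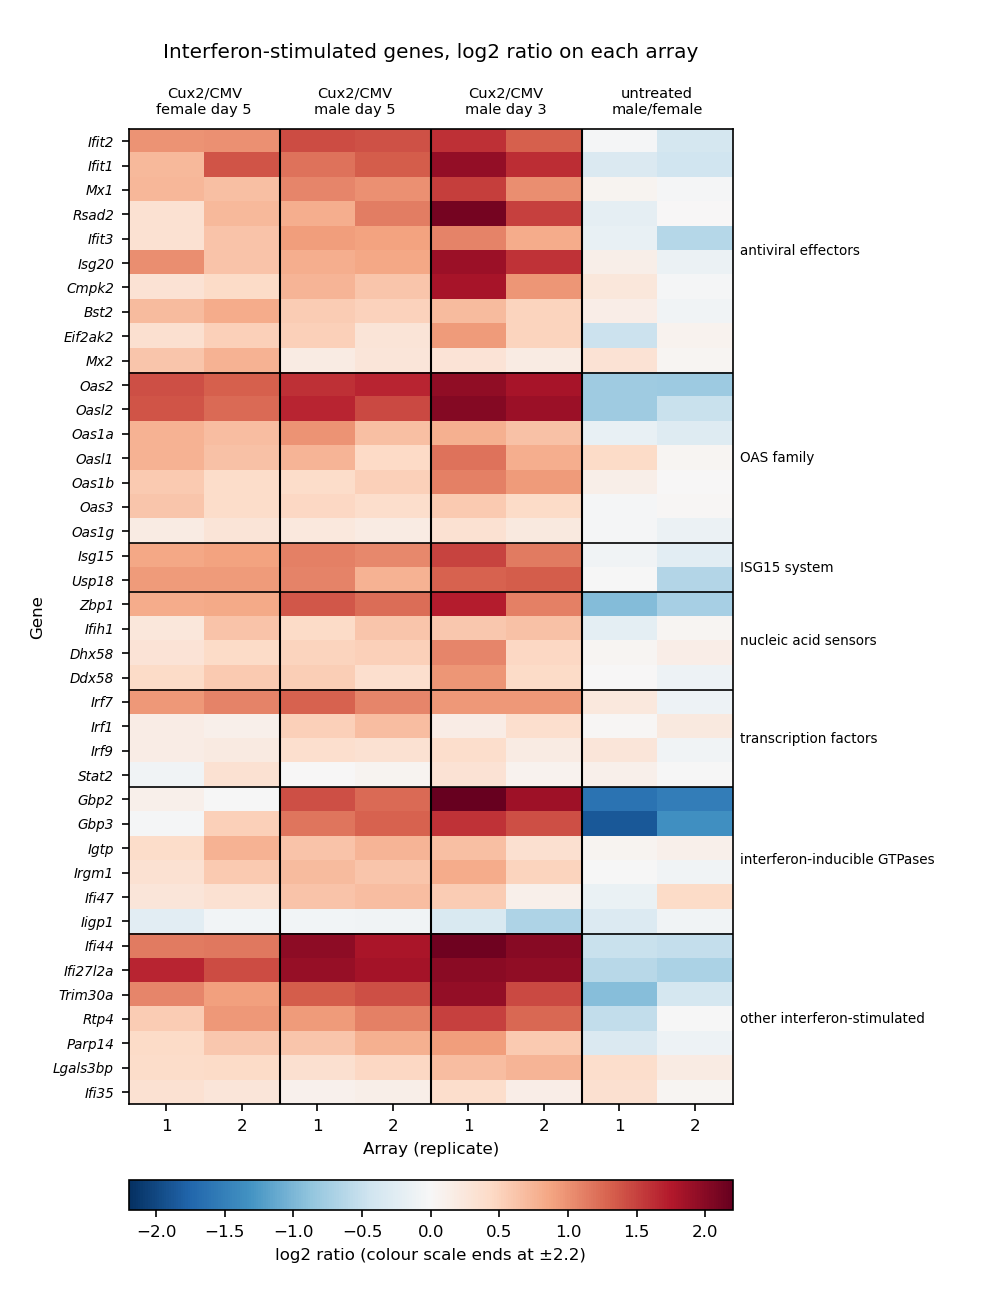
Log2 ratio of each of the 40 genes (rows, grouped by role) on each of the 8 arrays (columns, 2 replicates per comparison); red is higher in the pool named first, blue lower. Adeno-Cux2 arrays are red for nearly all rows, Gbp2 and Gbp3 are near 0 in females at day 5, and 8 rows are clearly blue in untreated males over females.

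Among the antiviral effectors, 7 of 10 were called higher in females at day 5, 8 in day 5 males and 9 in day 3 males. Ifit1, which binds viral RNA, had ratios of 0.72 and 1.39 on the 2 arrays of females at day 5 (1.05 ± 0.15), 1.19 and 1.34 in day 5 males (1.27 ± 0.15), and 1.93 and 1.63 in day 3 males (1.78 ± 0.15). All 6 arrays were high, and the 2 female arrays differed most. Its relative Ifit2 had 0.98 and 1.00 in females, 1.44 and 1.41 in day 5 males, and 1.61 and 1.31 in day 3 males. Ifit3 had smaller values, at 0.48 ± 0.12, 0.90 ± 0.12 and 0.96 ± 0.12. The Ifit genes were thus higher in the Adeno-Cux2 than in the Adeno-CMV pools in all 3 comparisons.

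Rsad2, or viperin, which makes an altered nucleotide that stops viral polymerases, gave 0.33 and 0.71 in females at day 5, 0.81 and 1.12 in day 5 males, and 2.10 and 1.50 in day 3 males. It was called in both male comparisons (adjusted p = 0.00786 and 0.000219) and not in females (adjusted p = 0.0725). Isg20, an exonuclease of RNA, had 1.02 and 0.62 in females, 0.80 and 0.85 in day 5 males, and 1.89 and 1.59 in day 3 males, so that the day 3 arrays stood above all others. Cmpk2, a mitochondrial nucleotide kinase encoded beside Rsad2, followed the same order, at 0.37 ± 0.15, 0.68 ± 0.15 and 1.38 ± 0.15, and was not called in females. Mx1, a GTPase that restricts viral replication, was called in all 3 comparisons, at 0.70 ± 0.09, 1.04 ± 0.09 and 1.28 ± 0.09. Mx2, from the neighbouring gene, was called in 1 of the 3, in females (0.69 ± 0.09, adjusted p = 0.00306), with 0.22 ± 0.09 and 0.25 ± 0.09 in day 5 and day 3 males. Bst2, or tetherin, which holds budding virus at the membrane, was called in all 3, at 0.75 ± 0.08, 0.53 ± 0.08 and 0.60 ± 0.08. Eif2ak2, the kinase that halts translation on sensing double-stranded RNA, was called only at day 3 (0.72 ± 0.16), with 0.44 ± 0.16 and 0.40 ± 0.16 at day 5 in females and males.

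The oligoadenylate synthetases, which make the activator of RNase L, were called in 6 of 7 in females at day 5, 6 in day 5 males and 7 in day 3 males. Oas2 had ratios of 1.42 and 1.32 in females at day 5 (1.37 ± 0.07), 1.61 and 1.67 in day 5 males (1.64 ± 0.07), and 1.94 and 1.81 in day 3 males (1.88 ± 0.07). A further, dim Oas2 probe gave only 0.08, 0.13 and 0.05. Oasl2, an oligoadenylate synthetase-like protein, had 1.39 and 1.24, 1.68 and 1.45, and 2.02 and 1.88 in the same order. Every array of both genes stood above every array of the other 5 genes of the family. Oas1a was close to equal in the 3 comparisons, at 0.72 ± 0.07, 0.82 ± 0.07 and 0.72 ± 0.07. Oas1b and Oasl1 had their highest value at day 3, 1.03 ± 0.07 and 1.00 ± 0.07, with 0.49 ± 0.07 and 0.71 ± 0.07 in females and 0.47 ± 0.07 and 0.60 ± 0.07 in day 5 males. Oas3 ranged from 0.42 to 0.51, and its further, dimmer probe gave 0.29 in females, 0.41 in day 5 males and 0.24 in day 3 males. Oas1g, called only at day 3 (0.28 ± 0.07), was dim and was not well above background in the untreated pools. Probes of Oas1a, Oas1b and Oas1g can read close relatives of these tandem genes.

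The ubiquitin-like modifier Isg15 and its protease Usp18, which also damps signalling at the interferon receptor, were called higher throughout. Isg15 had 0.86 and 0.89 in females at day 5 (0.87 ± 0.08), 1.11 and 1.06 in day 5 males (1.08 ± 0.08), and 1.49 and 1.15 in day 3 males (1.32 ± 0.08). The files place its probe at chr17:45870420-45870479 on mm8, while RefSeq places Isg15 on chromosome 4 of GRCm38.p6, so the probe is named here through its accession. Usp18 had 0.93 and 0.94, 1.08 and 0.77, and 1.29 and 1.34 in the same order. Day 3 was highest for both genes.

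Cytosolic sensors of nucleic acid were called higher than in the Adeno-CMV pools in 3 of 4 in females at day 5. All 4 were called higher in day 5 males and at day 3. Zbp1, which recognises nucleic acid in the Z form, had 0.82 and 0.84 in females, 1.37 and 1.23 in day 5 males, and 1.72 and 1.10 in day 3 males. The helicases Ifih1 and Ddx58, which sense viral RNA, gave 0.44 ± 0.08 and 0.50 ± 0.11 in females, 0.51 ± 0.08 and 0.45 ± 0.11 in day 5 males, and 0.62 ± 0.08 and 0.70 ± 0.11 at day 3. A further, dimmer Ifih1 probe gave 0.33, 0.32 and 0.32 in the same order. Further Ddx58 probes gave 0.37 to 0.64, 0.36 to 0.45 and 0.37 to 0.66. Dhx58, a helicase that tunes the other two, was not called in females (0.36 ± 0.13) and stood at 0.51 ± 0.13 and 0.76 ± 0.13 in males.

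Among the transcription factors, 1 of 4 was called higher in females at day 5, 3 in day 5 males and 3 in day 3 males. Irf7, the factor that amplifies type I interferon production, had 0.95 and 1.10 in females at day 5 (1.02 ± 0.10), 1.30 and 1.08 in day 5 males (1.19 ± 0.10), and 0.95 and 0.95 in day 3 males. All 6 arrays were near or above 2-fold. Irf1, induced strongly by interferon gamma, had 0.16 and 0.11 in females (0.14 ± 0.07, not called), 0.52 and 0.68 in day 5 males (0.60 ± 0.07), and 0.16 and 0.38 in day 3 males (0.27 ± 0.07). A further, dimmer Irf1 probe gave 0.09, 0.43 and 0.0067 in the same order. Irf9, a DNA-binding partner of Stat2, had 0.17 and 0.19, 0.38 and 0.34, and 0.38 and 0.19, and was called in the male comparisons. Stat2 had −0.07 and 0.34, 0.01 and 0.06, and 0.33 and 0.08, and was not called. Ratios of Irf9 and Stat2 lay below those of Irf7 on all 6 arrays.

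Guanylate-binding proteins and immunity-related GTPases, which attack membranes around pathogens, differed within the family. Gbp2 had 0.11 and −0.02 in females at day 5 (0.05 ± 0.09), 1.42 and 1.24 in day 5 males (1.33 ± 0.09), and 2.23 and 1.86 in day 3 males (2.05 ± 0.09). Gbp3 had −0.03 and 0.52 in females (0.25 ± 0.13), 1.17 and 1.29 in day 5 males (1.23 ± 0.13), and 1.58 and 1.41 in day 3 males (1.50 ± 0.13). For both genes the 2 female arrays lay below all 4 male arrays. Igtp and Irgm1 were called in all 3, at 0.58 ± 0.11 and 0.45 ± 0.10 in females, 0.69 ± 0.11 and 0.65 ± 0.10 in day 5 males, and 0.51 ± 0.11 and 0.65 ± 0.10 in day 3 males. Ifi47 was called in day 5 males (0.65 ± 0.15) and not in females (0.30 ± 0.15) or day 3 males (0.33 ± 0.15). Iigp1 was the gene called lower, with −0.33 and −0.68 in day 3 males (−0.51 ± 0.11, adjusted p = 0.00804), −0.24 and −0.05 in females, and −0.05 and −0.09 in day 5 males. Its call was lost without replicate 2 of that comparison.

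The remaining 7 genes were called higher in 7 in females at day 5, 6 in day 5 males and 7 in day 3 males, and they hold Ifi44 and Ifi27l2a, whose ratios were the highest of the 40 in day 5 males. Ifi44, a cytoplasmic protein with antiviral activity, had 1.15 and 1.17 in females at day 5 (1.16 ± 0.06), 1.96 and 1.80 in day 5 males (1.88 ± 0.06, 3.69-fold), and 2.14 and 2.01 in day 3 males (2.07 ± 0.06). A further Ifi44 probe gave 0.80, 0.88 and 1.05. Ifi27l2a had 1.68 and 1.43, 1.91 and 1.83, and 1.99 and 1.95 in the same order, and its further probe gave 1.40, 1.45 and 1.61. All 12 of these main values were above 1, that is, above 2-fold. Trim30a, a tripartite motif protein, had 1.07 and 0.90 in females, 1.33 and 1.41 in day 5 males, and 1.93 and 1.45 in day 3 males. Rtp4, a receptor chaperone, and Parp14, an ADP-ribosyltransferase, were called in all 3, at 0.76 ± 0.13 and 0.51 ± 0.10 in females, 1.02 ± 0.13 and 0.69 ± 0.10 in day 5 males, and 1.38 ± 0.13 and 0.75 ± 0.10 in day 3 males. Lgals3bp, a secreted glycoprotein, was called in all 3 at 0.41 ± 0.08, 0.40 ± 0.08 and 0.71 ± 0.08. Ifi35 was called in females (0.30 ± 0.08) and at day 3 (0.27 ± 0.08), with 0.11 ± 0.08 in day 5 males.

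**Figure D2:**
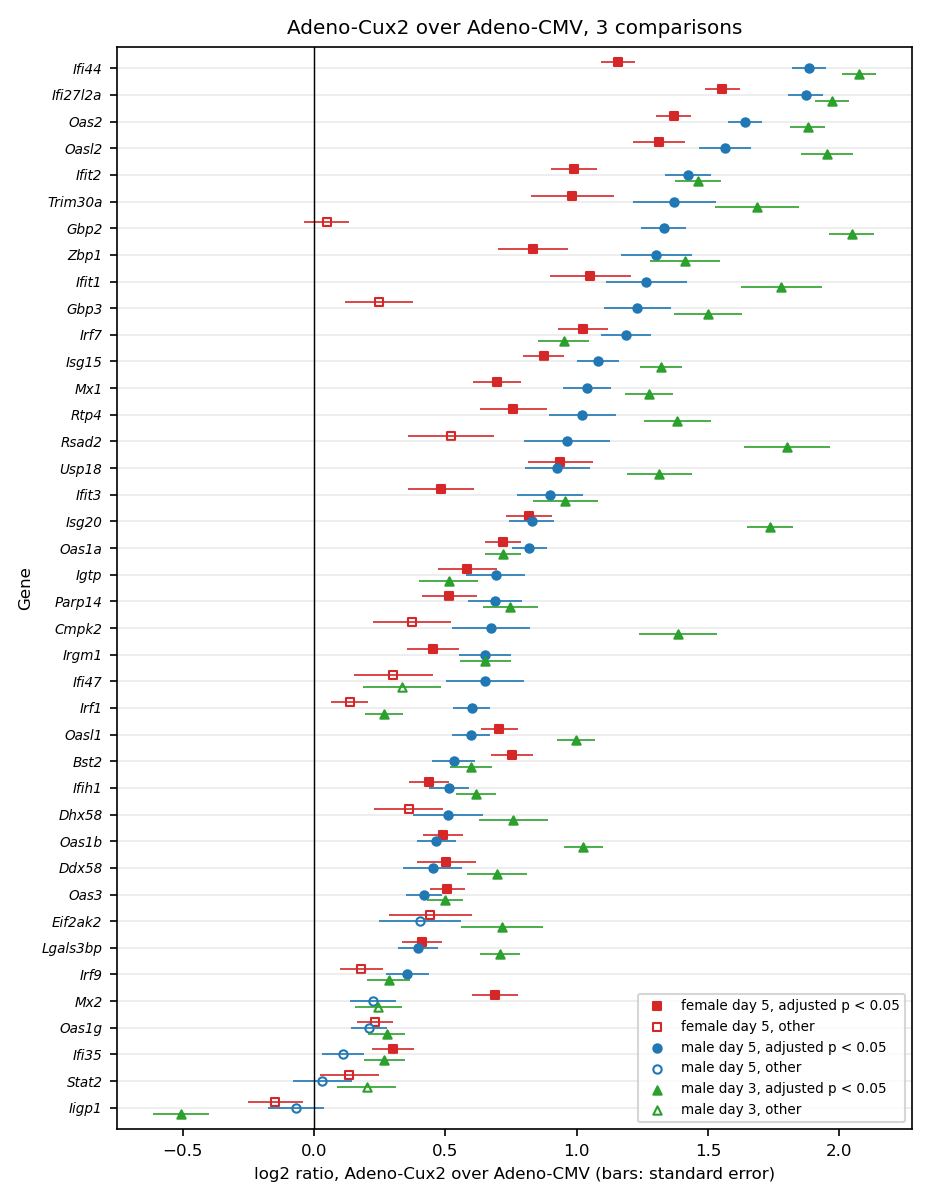
Log2 ratio of Adeno-Cux2 over Adeno-CMV for the 40 genes, sorted by the value in males at day 5, with bars of 1 standard error; filled symbols passed an adjusted p of 0.05. Ifi44 reaches 2.07 at day 3, and Gbp2 stands at 0.05 in females against 1.33 in males at day 5.

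Untreated livers differed between the sexes in fewer of these genes. Of the 40 genes 8 were lower in untreated males than in untreated females, against 6.14% of all genes, and 0 were higher, against 4.93%. At an unadjusted p under 0.05 in limma the counts were 12 and 3. Gbp3 had −1.86 and −1.35 on the 2 arrays (−1.60 ± 0.13, 3.04-fold lower, adjusted p = 0.000912), and Gbp2 had −1.62 and −1.53 (−1.57 ± 0.09, adjusted p = 0.000315). These 2 guanylate-binding genes differed most. Next came Zbp1 with −0.95 and −0.73, Oas2 with −0.79 and −0.80, and Trim30a with −0.94 and −0.39. Ifi27l2a had −0.62 and −0.70, Oasl2 −0.78 and −0.48, and Ifi44 −0.49 and −0.52. All 16 of these values were negative, as is likely for genes chosen because they were called lower on these arrays. Isg15 had −0.08 and −0.23 and Usp18 −0.0027 and −0.65, and neither was called. Irf7, Irf1, Irf9 and Stat2 lay between 0.05 and 0.12. Without untreated replicate 1, 4 members were called lower, and Gbp2, Gbp3 and Oas2 were called under all 21 alternatives.

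The 8 genes lower in untreated males were all among the 10 with the highest ratios in males 5 days after Adeno-Cux2. These comparisons share no pool, and the untreated and male day 5 arrays lie on 1 slide. Over the 40 genes the untreated ratio and the male day 5 ratio had a Pearson r of −0.64 (Spearman −0.70), given as a description, and over all genes the r was −0.42. With females at day 5 the r over the 40 was −0.20 (Spearman −0.41), and with males at day 3 it was −0.61. All 8 were called higher in day 5 males and at day 3, and 6 of them in females at day 5, Gbp2 and Gbp3 being the exceptions. Their ratios in day 5 males ran from 1.23 to 1.88 (median 1.47), against −0.07 to 1.42 (median 0.63) for the other 32.

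**Figure D3:**
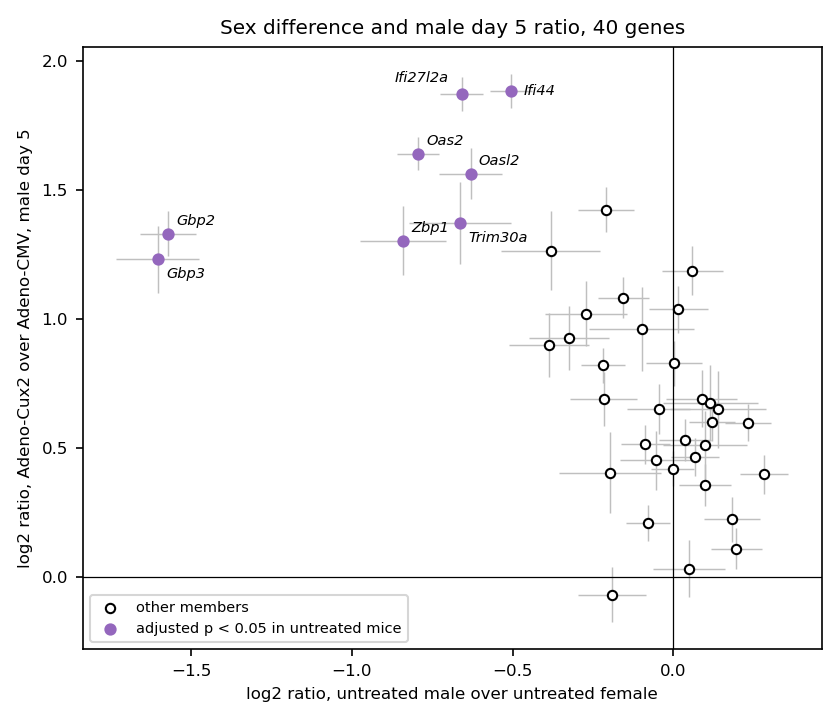
Each point is one of the 40 genes, with the log2 ratio of untreated males over untreated females on the horizontal axis and that of Adeno-Cux2 over Adeno-CMV in males at day 5 on the vertical axis, with standard errors. The 8 named genes, lower in untreated males, all lie at or above 1.23 on the vertical axis.

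The response of females was set against that of males at day 5 in the same model. The ratio was smaller in females for 28 of the 40 genes and larger for 12, with a median difference of −0.17. That median was −0.046 without female replicate 1 and −0.26 without female replicate 2. Gbp2 passed the test, at −1.28 ± 0.12 (adjusted p = 0.0308), where 0.171% of all genes were called lower in females and 0.036% higher. That is 1 of 40 lower and 0 higher, against 9 and 1 at an unadjusted p under 0.05 in limma. Gbp3 (−0.98 ± 0.18, adjusted p = 0.108) and Ifi44 (−0.73 ± 0.09, adjusted p = 0.0541) came next and missed it. Mx2 had the largest positive difference, 0.47 ± 0.12 (adjusted p = 0.215). Leaving out any of the 4 arrays concerned left 0 calls, with Gbp2 between −1.26 and −1.30. Of the 7 genes called in both male comparisons and not in females (Cmpk2, Dhx58, Gbp2, Gbp3, Irf1, Irf9 and Rsad2), only Gbp2 passed the test of the difference from males at day 5. Female and male day 5 arrays lie on different slides, so the slide and the sex cannot be told apart in these differences, whose sign and size also rest on the female label. With the sign of the female arrays turned, the median difference would be −1.29.

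**Figure D4:**
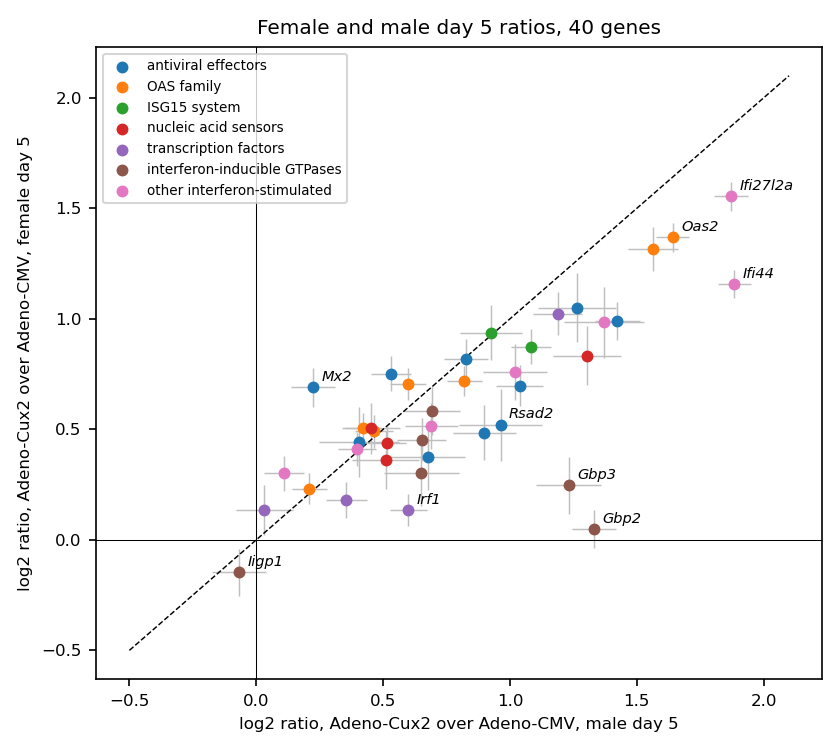
Log2 ratio of Adeno-Cux2 over Adeno-CMV in females (vertical axis) and males (horizontal axis) at day 5 for the 40 genes, coloured by role, with standard errors; the dashed line marks equal ratios. Most points lie below the line, Gbp2 and Gbp3 farthest from it, and Mx2 above it.

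In males, 4 genes had a smaller ratio at day 5 than at day 3. The ratio was smaller at day 5 for 33 of the 40 genes and larger for 7, with a median difference of −0.18. That median was −0.0059 without day 3 replicate 1, −0.28 without day 3 replicate 2 and −0.37 with median centring. Called lower at day 5 were these 4 genes, against 4.83% of all genes, and 0 were called higher, against 8.11% (9 and 2 at an unadjusted p under 0.05 in limma). They were Isg20 (−0.91 ± 0.12, adjusted p = 0.00777), Gbp2 (−0.72 ± 0.12, adjusted p = 0.0147), Oas1b (−0.56 ± 0.11, adjusted p = 0.0199) and Oasl1 (−0.40 ± 0.10, adjusted p = 0.0481). Rsad2 (−0.84 ± 0.23) and Cmpk2 (−0.71 ± 0.21) missed the test. The genes with the largest positive differences were Iigp1 (0.44 ± 0.15) and Irf1 (0.33 ± 0.10), neither called. Without either day 5 array, or without day 3 replicate 1, 0 genes were called, and 3 without day 3 replicate 2. The slides differ here too and cannot be told apart from the day.

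The control virus was set against no virus through the single channels of the 4 arrays on 1 slide. This fit reads Adeno-CMV males at day 5 and untreated males, and it shares pools with the comparisons above. Called higher in Adeno-CMV males were 4 of the 40, against 7.03% of all genes, and 3 were called lower, against 9.69%, with a median difference of 0.0092. Without normalization between arrays that median was 0.33, and that of all genes 0.15. Oas1a had log2 signals of 10.44 and 10.55 in the Adeno-CMV pools, against 9.58 and 9.55 in the untreated male pools (0.93 ± 0.10, adjusted p = 0.00515). Lgals3bp had 14.71 and 14.59 against 14.04 and 13.87 (0.69 ± 0.13). Mx1 and Rsad2 were higher by 0.45 ± 0.10 and 0.44 ± 0.10. Igtp (−0.52 ± 0.09), Ddx58 (−0.41 ± 0.09) and Oas2 (−0.36 ± 0.08) were lower. Ddx58 and Oas2 had small positive values, 0.02 and 0.10, without normalization between arrays. Of the 7 calls, that of Oas1a held under all 8 alternatives.

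The Adeno-Cux2 males lay above untreated males for most of the set. Called higher were 31 of the 40, against 15.5% of all genes, and 0 were lower, against 13.1% (31 and 0 at an unadjusted p under 0.05 in limma). The median difference was 0.84, and 9 members were not called. By role, 3 of 4 nucleic acid sensors (lowest 0.04), 2 of 4 transcription factors (lowest 0.17) and 3 of 6 interferon-inducible GTPases (lowest −0.01) were called higher. Gbp2 had log2 signals of 11.20 and 11.03 in Adeno-Cux2 males and 9.78 and 9.79 in Adeno-CMV males, against 9.81 and 9.71 in untreated males, while untreated females had 11.43 and 11.24. Gbp3 had 12.42 and 12.45 in Adeno-Cux2 males and 11.25 and 11.16 in Adeno-CMV males, against 10.64 and 11.02 in untreated males and 12.50 and 12.37 in untreated females. The Gbp3 pools of Adeno-Cux2 males lay within the range of untreated females, and those of Gbp2 just under it. Oas2 had 10.67 and 10.79 in Adeno-Cux2 males against 10.25 and 10.24 in untreated females, and Ifi44 had 11.59 and 11.53 against 9.83 and 10.07, so for both the Adeno-Cux2 male pools stood above those of untreated females. Stat2 lay between 10.73 and 11.04 in all 8 pools, with the groups close together.

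**Figure D5:**
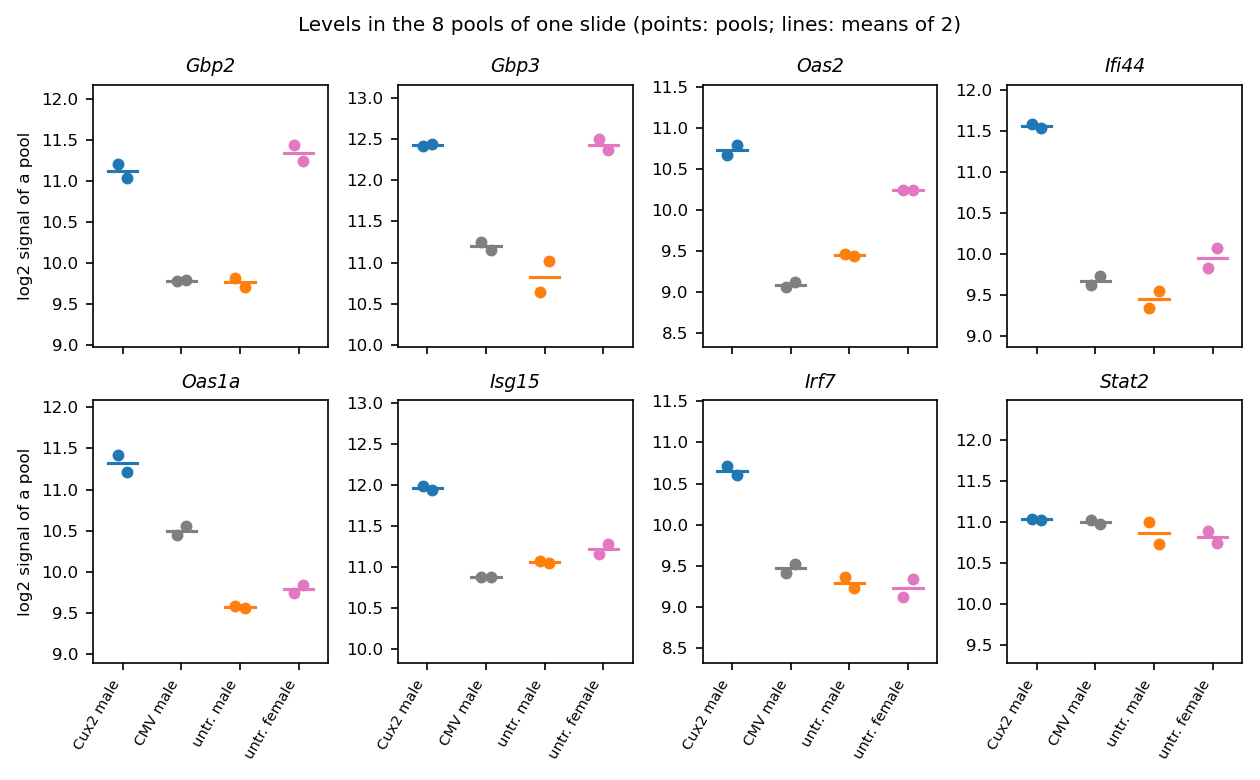
Log2 signal of 8 genes in the 8 pools of the slide with untreated and male day 5 pools, 2 pools (points) and their mean (line) per group; each panel spans the same range of 3.2. The Adeno-Cux2 male pools stand above the Adeno-CMV and untreated male pools by a clear gap in 7 panels, and the Stat2 pools lie between 10.73 and 11.04.

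The components of interferon signalling that are not in the set were described from lists of named genes. Beside the counts here and in the lists below stand the shares of all genes. These were 12.8% higher and 6.3% lower in females, 13.9% and 4.95% in day 5 males, and 23.7% and 20.3% in day 3 males. In untreated males over females they were 4.93% and 6.14%. Of 18 interferon genes 10 were measured, and in the Adeno-Cux2 over Adeno-CMV comparisons Ifng alone was called, at 0.39 ± 0.07 in day 5 males and 0.45 ± 0.07 in day 3 males. Against untreated males, Ifna9 was lower in Adeno-Cux2 (−0.36 ± 0.07) and Adeno-CMV males (−0.29 ± 0.07), and in Adeno-Cux2 males Ifna13 was lower (−0.45 ± 0.12) and Ifng higher (0.41 ± 0.11). In females 0 of 10 were called in limma (0 at an unadjusted p under 0.05). Of 6 interferon receptor genes 1 was called higher in females, 4 in day 5 males and 4 in day 3 males, and 0 lower. The receptor Ifnlr1, for type III interferon, was called in all 3, at 1.01 ± 0.08 in females, 1.19 ± 0.08 in day 5 males and 1.80 ± 0.08 in day 3 males. Ifngr1, for interferon gamma, was called in day 5 males (0.83 ± 0.15) and day 3 (1.06 ± 0.15). By their brightest probes the type I receptor genes Ifnar1 and Ifnar2 were called in none. For Ifnar2 this depended on the probe, since the mean of all its probes turned positive in day 5 and day 3 males.

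Upstream sensors and regulators moved partly with the set. Of 15 sensors, adaptors and kinases 7 were called higher in females, 8 in day 5 males and 9 in day 3 males, with 0, 1 and 2 lower. Ifi204, a sensor of DNA, had 1.15 ± 0.07, 1.50 ± 0.07 and 1.33 ± 0.07, and Tlr7, a sensor of single-stranded RNA, was higher by 1.04 ± 0.06 in females and 1.37 ± 0.06 in day 5 males, with 0.93 ± 0.06 at day 3. Sting1, the adaptor of DNA sensing, had 0.98 ± 0.11 in day 5 males and 1.24 ± 0.11 at day 3. Among other interferon regulatory factors Irf8 had 1.02 ± 0.07 and Irf5 0.90 ± 0.12 in day 5 males, while Irf2, a repressor, was lower, at −0.51 ± 0.08 in females, −0.44 ± 0.08 in day 5 males and −0.82 ± 0.08 in day 3 males. Of 10 inhibitors of signalling 2 were called higher in females, 4 in day 5 males and 4 in day 3 males, with 0, 0 and 2 lower. Among them Socs1 had 0.80 ± 0.14 in day 5 males and 0.99 ± 0.14 at day 3, and Socs3 had 1.00 ± 0.22 in day 5 males. In untreated males over females Socs3 (0.94 ± 0.22) and Pias3 (0.91 ± 0.10) were higher, and Tlr7 (−0.50 ± 0.06) and Ifi204 (−0.44 ± 0.07) lower.

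Further interferon-stimulated genes outside the set had similar counts. Of 37 measured, 27 were called higher in females at day 5, 30 in day 5 males and 33 in day 3 males, with 0, 0 and 1 lower, and 12 were lower in untreated males. Slfn4, a schlafen protein of myeloid cells, had 1.43 ± 0.06, 1.91 ± 0.06 and 2.11 ± 0.06 in the 3 comparisons. Cxcl10, a chemokine that draws activated lymphocytes, had 1.35 and 1.90 in day 5 males (1.62 ± 0.21) and 2.80 and 2.29 at day 3 (2.55 ± 0.21), and was lower in untreated males (−0.84 ± 0.21). In females at day 5 it had −0.58 and −0.12 and was not called.

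Most markers of macrophages, neutrophils and natural killer cells were also called higher in the Adeno-Cux2 pools. Among all genes, 12.8%, 13.9% and 23.7% were called higher in females at day 5, day 5 males and day 3 males. Called lower were 6.3%, 4.95% and 20.3%, and 6.14% in untreated males over females. In bulk liver RNA a change in the number of such cells and a change in the RNA of each cell cannot be told apart. Macrophage and Kupffer cell markers were called higher in 11 of 16 in females at day 5, 14 in day 5 males and 9 in day 3 males. In day 3 males 6 of these markers were lower, and their median ratio was 0.40. Their summed log2 signal was 18.13 and 18.12 in Adeno-Cux2 females against 17.02 and 16.94 in Adeno-CMV females, 17.53 and 17.78 against 16.05 and 16.30 in day 5 males, and 17.52 and 17.54 against 16.47 and 16.74 in day 3 males. In untreated males it was 16.41 and 16.30, against 16.56 and 16.52 in untreated females, and 6 of the 16 markers were lower in untreated males, as were 4 of 8 neutrophil and 2 of 9 natural killer cell markers. Lyz2, a lysozyme of macrophages, had 1.60, 1.82 and 1.51 in the 3 Adeno-Cux2 comparisons. Natural killer cell markers were called higher in 5, 8 and 9 of 9, with Gzma at 0.61, 1.63 and 1.44. Neutrophil markers were called higher in 7 of 8 in each, and their summed log2 signal ran from 14.33 to 16.83 in Adeno-Cux2 pools against 12.48 to 15.04 in Adeno-CMV pools, with both Adeno-Cux2 pools above both Adeno-CMV pools in each comparison. In Adeno-CMV day 5 males over untreated males, 6 of 8 neutrophil markers were called higher and 0 lower (median 1.17). Of the 16 macrophage markers 2 were called higher there and 5 lower, against 7.03% and 9.69% of all genes. All 16 macrophage markers were well above background in every pool, so none was at 0.

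Markers of other cell types were set beside these. For them too, the shares of all genes called higher were 12.8%, 13.9% and 23.7% in the 3 comparisons. The shares called lower were 6.3%, 4.95% and 20.3%. B cell markers were called higher in 0, 1 and 0 of 3, with a log2 summed signal of 8.14 to 8.30 in all 16 pools, and T cell markers in 2, 2 and 2 of 7, with 1 lower at day 3. Of 5 plasmacytoid dendritic cell markers Ly6d was higher in all 3 comparisons, and Siglech was lower in females (−0.37 ± 0.07). Their summed log2 signal was 13.95 and 13.88 in Adeno-Cux2 day 5 males against 11.85 and 11.97 in Adeno-CMV day 5 males. The median ratio of the 5 markers there was only 0.13, with 1 called higher and 2 of negative sign. The sum thus does not stand for the list. Conventional dendritic cell markers were called higher in 3, 4 and 3 of 6, with 1 lower at day 3. Stellate cell markers were called higher in 6, 7 and 5 of 8, with 1 lower at day 3, and bile duct cell markers in 6, 4 and 4 of 6. Endothelial markers were called higher in 3, 4 and 3 of 8, with 2 lower at day 3. In Adeno-CMV over untreated males 4 of these 8 were called lower and 0 higher. Hepatocyte markers were called higher in 5, 4 and 1 of 10, with 4 lower at day 3. The part of any cell type in the interferon-stimulated ratios was not tested.

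Replicate arrays were closer to each other in the Adeno-Cux2 comparisons than in untreated mice. Over the 40 genes the Pearson r of the 2 arrays was 0.85 in females at day 5, 0.95 in day 5 males and 0.95 in day 3 males. In untreated mice it was 0.80, with a Spearman value of only 0.60. There, 8 of the 40 were positive on both arrays and 19 negative on both. These values describe a spread across genes, which are not independent. Of 20 further probes for 16 of the genes, all 20 had the sign of the main probe in each Adeno-Cux2 comparison and 15 in the untreated one. Sign alone is a weak measure, since the further Irf1 probe stood at 0.0067 in day 3 males.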

How the data were processed

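Liver RNA pools were hybridised in pairs to 8 arrays on 2 slides. Scanner files were made with Feature Extraction 9.5.3.1 (slide 1, untreated and male day 5) and 10.7.1.1 (slide 2, female day 5 and male day 3), per the file headers. Intensity values, as deposited, give each spot's median brightness and that of its local background per channel, not normalized. The deposited log10 ratio of red over green, the LogRatio column, had been background-subtracted and dye-normalized by that software, per the file headers, and served as an alternative. Deposited flags of 0 or 1 (other values) mark spots well above background, per the file headers. Probe positions are on mm8.

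Median signals (343 to 442 green and 430 to 512 red, over backgrounds of 289 to 315 and 327 to 342.5) were corrected by normexp with an offset of 50 and loess-normalized within arrays in limma 3.58.1 (R 4.3.3, and the data.table package at 1.17.8). Of 41174 probes 33335 were kept, as well above background in either channel on both arrays of any comparison. This gave 22227 genes by the brightest probe. The members were named by 60 probes, 16 members had several, and 2 probes that matched by synonym alone were left out. A limma model with 4 comparisons and a dye term, which is also the replicate block since replicates 1 and 2 reversed the dyes, was fitted (3 residual and 3.62 prior degrees of freedom) and adjusted over all genes. Channels of slide 1 were fitted separately (intraspot correlation 0.818). The model was tested on simulated data.

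The members and lists were chosen with earlier results of these data known. Values on every array are given for the 10 called members with the largest ratios per comparison and for Irf1, Irf7, Irf9, Stat2, Isg15 and Usp18; of other lists, up to 3 called genes per comparison, and of marker lists the brightest genes; others named were chosen after their values were seen. One further gene of the pathway is not reported here.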

Additional observations from a re-analysis of the deposited data

Results flagged for a closer look

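The response of Gbp2 to Adeno-Cux2 differed between female and male mice at day 5 by a test of the difference itself, −1.28 on the log2 scale. Between day 5 and day 3 in males, the responses of Isg20 (−0.91), Gbp2 (−0.72), Oas1b (−0.56) and Oasl1 (−0.40) differed by the same kind of test. Each of these comparisons spans both slides, which cannot be told apart from sex or day.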

How the results depend on the processing

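With 2 arrays per comparison, single arrays moved the counts of called members. Leaving out each array in turn, the count called higher ran from 16 to 29 in females at day 5 (28 with all arrays), 13 to 35 in males at day 5 (34) and 29 to 38 in males at day 3 (36), with 0 to 1 lower at day 3 (1). For untreated males over females it was 0 to 1 higher (0) and 4 to 8 lower (8). For the female minus male difference at day 5 it was 0 to 1 lower (1), and for male day 5 minus day 3 it was 0 to 6 lower (4). For Adeno-CMV minus untreated males it was 2 to 11 higher (4) and 1 to 10 lower (3), and for Adeno-Cux2 minus untreated males 26 to 34 higher (31) and 0 to 1 lower (0). The software's log ratios gave 5 lower in untreated males, 0 lower in females minus males and 1 lower in day 5 minus day 3. Fitting only the 2 arrays of the comparison gave 4 lower in untreated males. Median centring gave 7 lower in day 5 minus day 3. Without background subtraction 0 were lower in females minus males and 1 was higher in Adeno-CMV minus untreated males, and without a filter on dim probes 2 were lower in females minus males. Without normalization between arrays 0 were lower in Adeno-CMV minus untreated males. Without the replicate block 6 members were lower there (6 higher), and no other count of calls moved by over 1.5 times; the counts were 27, 34 and 35 higher in females at day 5, males at day 5 and males at day 3. Signs turned in Adeno-CMV minus untreated males without normalization between arrays for Ddx58 (0.025), Oas2 (0.10) and Sp100 (0.0085), and in Adeno-Cux2 minus untreated males for Ifi47, with values from −0.23 to 0.22 when an array was left out. With the mean of all probes they turned for Gbp9 at day 3 (0.45), Ifnar2 in males at day 5 (0.47) and day 3 (0.25), and Ptpn6 in males at day 5 (−0.027) and day 3 (−0.039) and in untreated mice (0.56). The cause was not tested. Called under every alternative were 13 of 28 members in females at day 5, 13 of 34 in males at day 5, 29 of 37 in males at day 3, 3 of 8 in untreated mice, 1 of 7 in Adeno-CMV and 25 of 31 in Adeno-Cux2 over untreated males, and 0 of the 5 differences. The number of arrays limits the precision, and Oas1g was not well above background in the untreated pools.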
